A study of Mus musculus with 10 samples.

Results

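The ribosomal proteins of the cytosol were followed in the calf muscle of mice that accumulate mutations of mitochondrial DNA. The genes were chosen by name: a probe set counted when the only gene symbol it carried was Rpl or Rps with a number, or Rplp0, Rplp1, Rplp2 or Rpsa. Probe sets of the Rps6k kinases (11) and of pseudogenes (2, for Rps15a-ps6 and Rps4l) were left out. This gave 49 genes with 105 probe sets, out of 18193 genes with 34945 probe sets that name 1 gene. The large subunit was represented by 22 genes and 42 probe sets, the small subunit by 21 genes and 53 probe sets, and paralogs, which are near copies of a ribosomal protein gene, by 5 genes and 9 probe sets (Rpl3l, Rpl7l1, Rpl22l1, Rpl39l and Rps27l). The last gene, Rps19bp1, encodes a protein that binds Rps19 and is no ribosomal protein. Another 27 ribosomal protein genes, Rpl3, Rpl5, Rplp1, Rps12 and Rps23 among them, were named only beside a second symbol and were not counted.

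Gastrocnemius muscle, from the calf, was taken from 5 D257A mice and 5 wild-type (WT) mice, with 1 array for each mouse. D257A mice are PolgD257A/D257A, homozygous in every cell for a germline change that removes proofreading from the mitochondrial DNA polymerase γ, and WT mice are Polg+/+. All 10 mice were male and 13 months old by their labels, on a C57Bl/6J background reached by backcrossing from a mixed 129Sv/ICR/B6 stock, and they are named here by genotype and mouse number. Values of single mice follow the order WT 1-12M, 1-13M, 2-3M, 2-32M and 3-18M, then D257A 2-17M, 2-21M, 2-25M, 2-27M and 2-30M. Values are log2 of a scaled signal, D257A minus WT for fold changes, with a probe set called at an adjusted p under 0.05.

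A ribosome of the cytosol joins a large subunit, which forms peptide bonds and releases the chain through the exit tunnel, to a small subunit, which reads the mRNA. Each subunit is a core of ribosomal RNA coated by proteins that cells make in near equal amounts. The mRNAs of these proteins start with a C followed by an unbroken stretch of C and T (the terminal oligopyrimidine start), through which mTOR signalling controls their translation, so that the mRNA level measured here is not the rate at which the proteins are made.

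Such stretches can be looked for in the sequences around the listed transcription starts, here 80 bases before to 20 bases after it, 5′ to 3′ on the strand of the gene (RefSeq, GRCm38.p6). Capitals mark the longest unbroken run of C and T near the start. The 6 genes, picked with their values known, are shown to let the run be seen (Rpl35, Rpl38, Rps10, Rps18 and the paralog Rpl22l1) beside a paralog without it (Rpl3l). They do not stand for the called and uncalled genes.
Rpl35 (chr2:39005112-39005211, minus strand): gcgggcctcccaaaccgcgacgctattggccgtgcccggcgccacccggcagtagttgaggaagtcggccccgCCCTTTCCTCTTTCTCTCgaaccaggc
Rpl38 (chr11:114668500-114668599, plus strand): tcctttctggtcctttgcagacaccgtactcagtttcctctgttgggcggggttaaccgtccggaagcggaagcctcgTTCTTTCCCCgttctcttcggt
Rps10 (chr17:27635225-27635324, minus strand): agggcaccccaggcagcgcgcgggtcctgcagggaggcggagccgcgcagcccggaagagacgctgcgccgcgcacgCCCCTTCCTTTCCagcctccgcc
Rps18 (chr17:33955646-33955745, minus strand): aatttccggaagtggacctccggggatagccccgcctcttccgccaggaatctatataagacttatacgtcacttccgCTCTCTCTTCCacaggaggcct
Rpl22l1 (chr3:28805428-28805527, plus strand): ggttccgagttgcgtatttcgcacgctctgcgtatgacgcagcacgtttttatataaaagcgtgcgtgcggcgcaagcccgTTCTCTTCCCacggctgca
Rpl3l (chr17:24727746-24727845, plus strand): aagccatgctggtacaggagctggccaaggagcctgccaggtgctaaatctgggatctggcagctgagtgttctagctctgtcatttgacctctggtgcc

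The run held 18 bases in Rpl35, 10 in Rpl38, 13 in Rps10, 11 in Rps18 and 10 in Rpl22l1, and no run of at least 8 was found in Rpl3l, for which 2 starts are listed. A run of at least 8 bases of C and T, within 30 bases before to 20 bases after the start, was present in 10 of 20 large subunit genes and 9 of 18 small subunit genes with a listed promoter, and in 22.6% of all 17491 protein-coding genes. Among tested subunit genes with a listed promoter, 13 of the 29 called higher had the run and 16 lacked it, Rpl10a, Rpl6 and Rps19 among the latter, while 6 of the 8 not called had it (Rpl14, Rpl27a, Rpl39, Rps6, Rps25 and Rps27). The letters CGGAAG, a core bound by GABP and other ETS factors, on either strand of the 300 bases from 250 before to 50 after the start, were in 28 of the 38 subunit genes (73.7%) and in 23.5% of all genes. The letters AAGATGGC, known from YY1 sites, were in 3 of 38 (7.89%) against 3.57%, and GGGCGG, known from Sp1 sites, in 22 of 38 (57.9%) against 49.2%. Rpl3l had none of these 4 features. No promoter was listed for Rpl7, Rpl8, Rps14, Rps20 and Rps29. The 3 motifs were searched on both strands and share no stretch of letters long enough to be counted in place of each other. A match describes letters. A run shorter than 8 bases, or one outside the window around the listed start, was not counted, so a gene without a match can still have a shorter run.

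Messenger RNA for the proteins of both subunits was higher in D257A muscle, with similar medians. Among large subunit genes 18 of 22 tested were called higher, and among small subunit genes 15 of 20, against 3.64% of all 22518 tested probe sets and 3.71% of the 11216 probe sets that each stood for a gene. Rps16, whose own probe set was too dim to be tested, is the remaining small subunit gene. No gene of either subunit was called lower by limma, against 3.74% of all tested probe sets and 3.52% of those that stood for a gene. At an unadjusted p under 0.05, limma gave 1 lower gene, Rpl39, and the methods' t-test 0. The median log2 fold change was 0.41 in the large subunit (range -0.92 to 0.88) and 0.40 in the small subunit (0.11 to 0.67), beside -0.03 over all tested probe sets. The 33 called genes lay between 0.29 and 0.88. Every D257A mouse stood above every WT mouse in 17 large subunit genes (those called except Rpl37a) and 16 small subunit genes (the 15 called and Rps2), as they did in 3.94% of all tested probe sets.

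**Figure D1:**
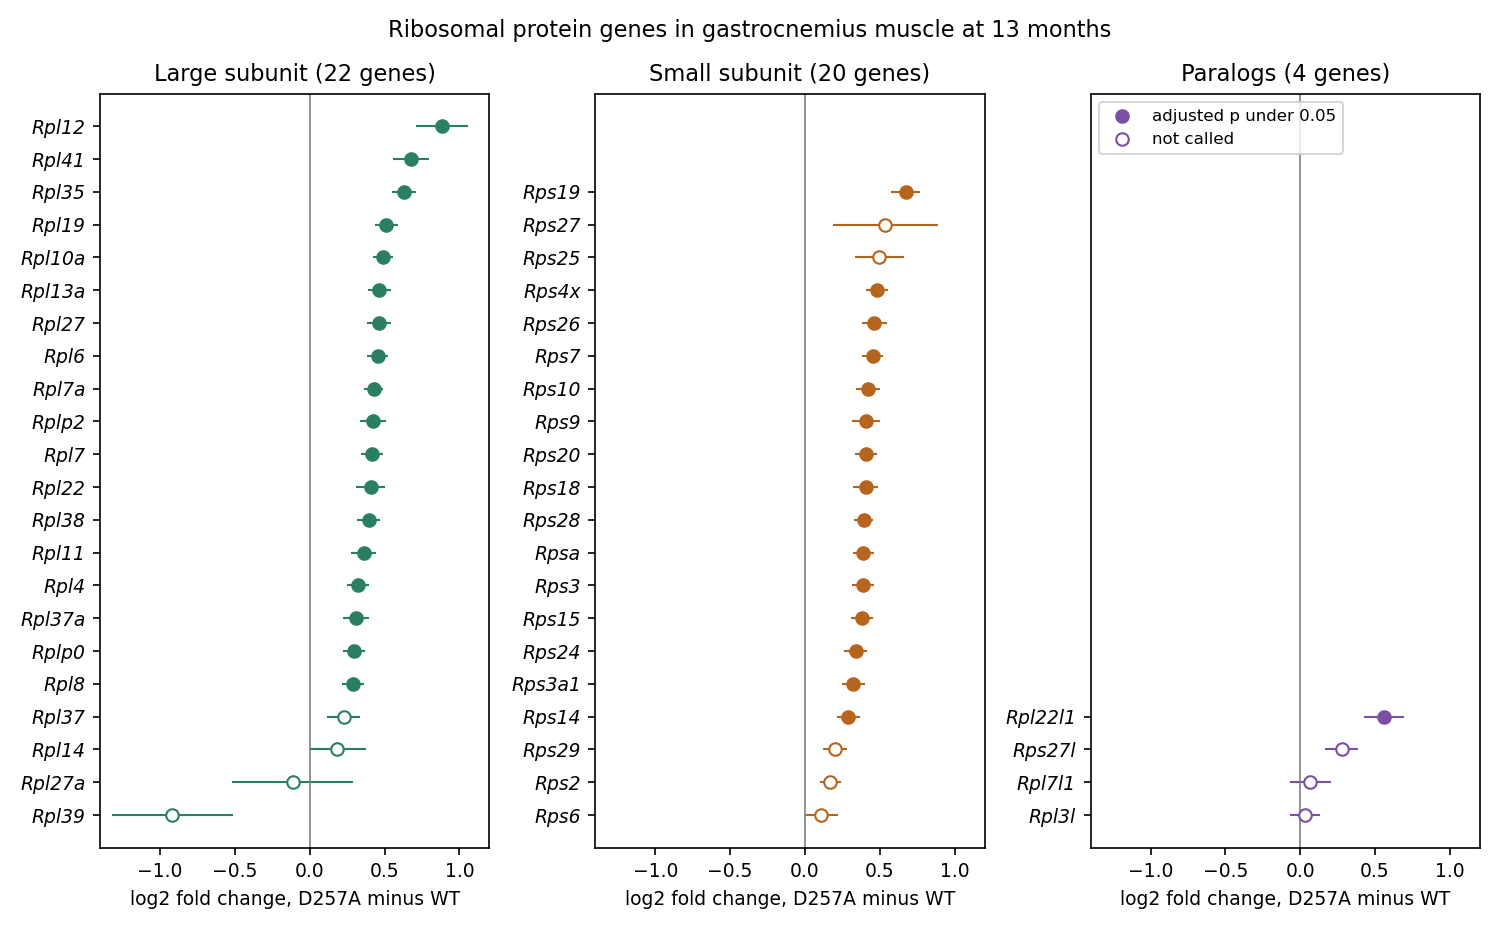
Log2 fold change, D257A minus WT, of the 22 large subunit genes, 20 small subunit genes and 4 paralogs that were tested, each measured by the brightest of its own probe sets. Points are limma estimates and bars their SE (n = 5 mice per genotype), and filled points have an adjusted p under 0.05. The called genes of both subunits lie to the right of 0, from 0.29 to 0.88, and the open point farthest to the left is Rpl39 at -0.92.

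The mean over the 22 large subunit genes was 13.13, 13.11, 13.04, 13.04 and 13.13 in the WT mice and 13.39, 13.42, 13.53, 13.38 and 13.44 in the D257A mice. The mean over the 20 small subunit genes was 13.50, 13.53, 13.48, 13.42 and 13.52 in the WT mice and 13.93, 13.83, 13.87, 13.79 and 13.97 in the D257A mice. In both subunits each D257A mouse was above each WT mouse, and the gap was wider than the spread within either genotype. The difference of the means was 0.34 for the large and 0.39 for the small subunit. The large mean includes the dim, uncalled Rpl39 (-0.92) and Rpl27a (-0.12). By the median fold change, the large subunit stood at 0.41 and the small at 0.40. The large mean minus the small mean, taken within each mouse, was -0.40 ± 0.03 (SD, n = 5) in WT and -0.44 ± 0.09 (SD, n = 5) in D257A mice. The mice of the genotypes overlapped in this balance, which was given no test because the genes were chosen with earlier results known.

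**Figure D2:**
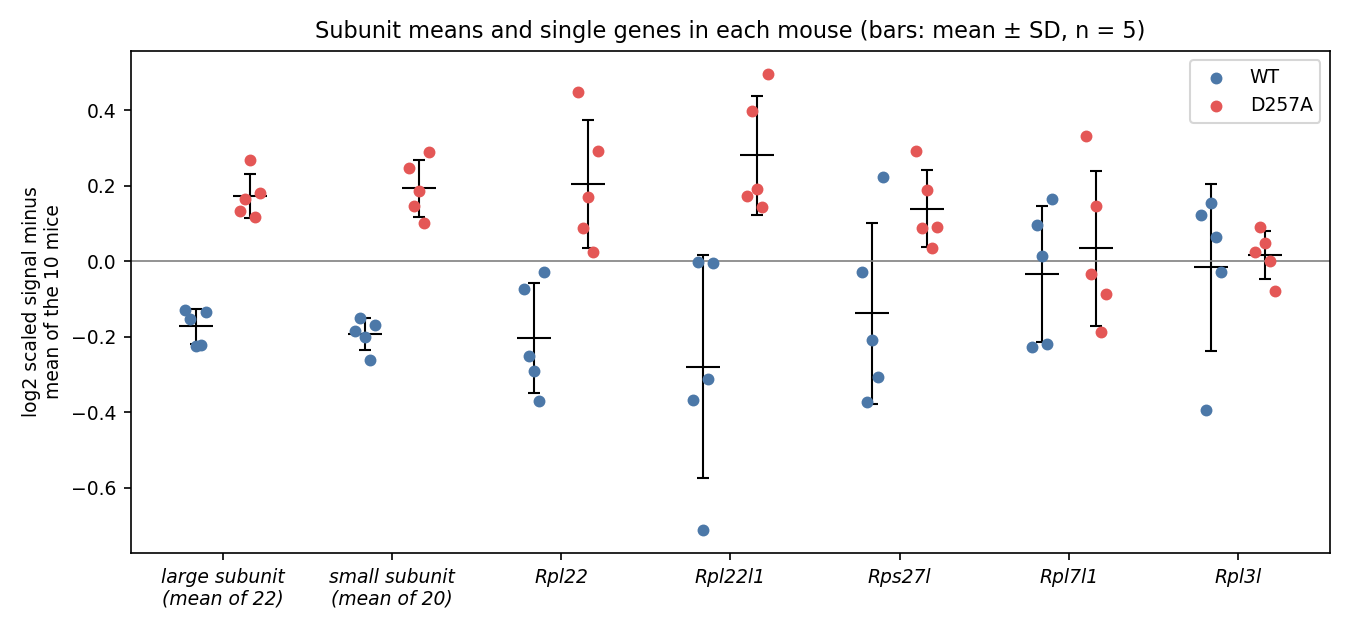
Log2 scaled signal in each of the 10 mice, minus the mean of the 10, for the mean of the 22 large subunit genes, the mean of the 20 small subunit genes, and single genes. Each point is a mouse, with mean ± SD beside it (n = 5). The genotypes are apart for both subunit means, Rpl22 and Rpl22l1, and overlap for Rps27l, Rpl7l1 and Rpl3l.

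Some facts of the whole set of arrays bear on these values. The arrays' deposited trimmed means ran from 93.4 to 128.7 signal units and were brought to 500. After that the median array signal was still lower in D257A mice, with a difference of -0.13 on the log2 scale. Without the scaling the median of all tested probe sets moved to -0.10, and with arrays centred on their median to 0.10. Relative to that median, the large and small subunit medians were 0.44 and 0.43. These scalings shift a whole array by a constant and so leave the relative values as they are, while quantile normalization, which does not, gave 0.32 and 0.31. The WT mouse 1-13M stood apart in several other genes, and without it 18 large and 16 small subunit genes were called, with medians of 0.40 and 0.39, while the share of all tested probe sets called in either direction went from 7.38% to 15.2%. One label line speaks of cochlea RNA, but all 13 muscle fibre markers were bright enough to be tested, with a summed signal of 549793 to 725191 in WT and 624611 to 672203 in D257A mice.

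Cell makeup can move a bulk level. More cells of a type and more RNA per cell cannot be told apart in these samples. Of the 16 tested macrophage markers 7 rose, against 3.64% of all tested probe sets, among them Lgals3 by 1.32 ± 0.16 (SE, n = 5 per genotype, limma adjusted p = 0.000638) and Fcgr3 by 1.00, while others of the list, Cd68 (0.02), C1qa (0.01) and Fcgr1 (-0.31) among them, picked with their values known, were not called. The summed signal of the list was 13688 to 17586 in WT and 18908 to 27066 in D257A mice. Of the 10 fibroblast and matrix markers 5 fell, against 3.74% of all tested probe sets, Col1a2 by 2.41 on the log2 scale (limma adjusted p = 0.00163). Others of the list, Dcn (-0.08) and Pdgfra (-0.04) among them, picked with their values known, were not called. The calls of Col1a1, Col3a1 and Fn1 were lost in 4, 6 and 1 of 10 fits without a single mouse. The summed signal of the list was 23545 to 40861 in WT and 23488 to 27834 in D257A mice. One gene was called in each of 4 other lists: Mb, the myoglobin of muscle fibres, fell by 0.35, while the endothelial Vwf (0.85), the adipocyte Retn (1.18) and Chrna1 of the satellite cell and myoblast list (1.28) were higher. The calls of Mb and Retn were lost when most single mice were left out (8 and 6 of 10, adjusted p up to 0.0953 and 0.108). Most markers of T cells and B cells (8 of 9 with a probe set) were too dim to be tested, as were 3 of 5 for neutrophils and 3 of 4 for red blood cell precursors, and the tested ones, like those of Schwann cells and nerve, were not called. No marker of any list was at 0. The part of these cells in the ribosomal protein result was not tested.

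In the large subunit, Rpl35 and Rpl19 encode proteins around the mouth of the exit tunnel. There 2 of 3 tested genes were higher, as were 33 of 42 over both subunits. The log2 signal of Rpl35 was 14.11, 14.05, 14.16, 14.14 and 14.34 in the WT mice and 14.96, 14.77, 14.77, 14.70 and 14.74 in the D257A mice. The genotypes did not overlap, and the rise was 0.63 ± 0.08 (SE, n = 5 per genotype, limma adjusted p = 0.000689). That was the smallest adjusted p of the ribosomal protein genes when each was read by its brightest probe set. Rpl19 was 13.70, 13.77, 13.73, 13.71 and 13.67 in the WT mice and 14.37, 14.28, 14.22, 14.08 and 14.18 in the D257A mice, a rise of 0.51 ± 0.08 (SE, n = 5 per genotype, limma adjusted p = 0.002) with a narrow spread in the WT mice. Rpl35 was called under all 24 alternative settings tried, and so was Rpl19.

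Rpl10a belongs to the L1 stalk, the arm that guides spent tRNA out of the ribosome. Its log2 signal was 14.27, 14.30, 14.30, 14.39 and 14.39 in the WT mice and 14.89, 14.81, 14.78, 14.75 and 14.86 in the D257A mice. Every D257A mouse was above every WT mouse, and the rise was 0.49 ± 0.07 (SE, n = 5 per genotype, limma adjusted p = 0.00109). Rpl41, one of the smallest proteins of the ribosome, was 14.49, 14.22, 13.94, 13.99 and 14.57 in the WT mice and 15.02, 14.97, 14.89, 14.72 and 14.97 in the D257A mice. The WT mice were spread more widely here than for Rpl10a, without reaching the D257A mice, and the rise was 0.68 ± 0.12 (SE, n = 5 per genotype, limma adjusted p = 0.00505).

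The remaining large subunit genes with the smallest adjusted p were Rpl6, Rpl7a, Rpl13a and Rpl27, which rose by 0.45, 0.43, 0.47 and 0.46 with adjusted p from 0.00215 to 0.0047. Rpl6 in the WT mice ran from 13.83 to 13.95 and in the D257A mice from 14.27 to 14.40. Rpl11, which together with Rpl5 and the 5S RNA forms a particle that can also bind Mdm2, rose by 0.36 ± 0.08 (SE, n = 5 per genotype, limma adjusted p = 0.0212). Its groups did not overlap, from 13.52 to 13.82 in WT and from 13.95 to 14.12 in D257A mice, but its call was lost under 9 of the 24 settings. Without WT 1-12M, WT 2-32M, D257A 2-17M or D257A 2-25M it did not pass (adjusted p up to 0.0648), at 0.32 to 0.40 over all mice left out.

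The stalk at the factor-binding side of the large subunit, which recruits the elongation factors, is built by Rplp0, Rplp1 and Rplp2 on a base that holds Rpl12. All 3 of its tested genes were called, as were 33 of 42 over both subunits. Rplp2 was 14.89, 14.75, 14.81, 14.62 and 14.99 in the WT mice and 15.43, 15.16, 15.25, 15.07 and 15.27 in the D257A mice, and the rise was 0.42 ± 0.09 (SE, n = 5 per genotype, limma adjusted p = 0.0108) with no overlap. Rplp0, used in many laboratories as a reference gene, was 15.10, 14.79, 14.96, 14.78 and 14.94 in the WT mice and 15.26, 15.22, 15.23, 15.10 and 15.23 in the D257A mice. Both D257A 2-27M and WT 1-12M read 15.10 when rounded, with the D257A mouse just above, and the rise of 0.30 ± 0.08 (SE, n = 5 per genotype, limma adjusted p = 0.0319) was lost in 11 of 24 settings. Among these were the fits without WT 2-3M, WT 2-32M, D257A 2-17M, 2-21M, 2-25M or 2-30M, where the adjusted p reached 0.0866 and the rise stayed between 0.26 and 0.34 over all mice left out. Rpl12 was a dim probe set and had the largest rise of the large subunit, 0.88 ± 0.17 (SE, n = 5 per genotype, limma adjusted p = 0.00855), from 7.25, 7.90, 7.74, 7.39 and 7.39 in the WT mice and 8.27, 8.12, 8.71, 8.41 and 8.57 in the D257A mice, with no overlap. With mice blocked by the first digit of their number, Rpl12 did not pass (0.85, limma adjusted p = 0.0828). That fit compares the D257A mice only with WT 2-3M and 2-32M, the WT mice that share their first digit.

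In the small subunit, Rps19, a protein of the head that is mutated in many patients with Diamond-Blackfan anaemia, rose most when each gene was read by its brightest probe set. Dimmer called probe sets of Rps10 (1.05), Rps20 (0.83) and Rps24 (0.77) gave larger values. The log2 signal of Rps19 was 13.27, 13.34, 13.42, 13.24 and 13.01 in the WT mice and 14.11, 13.95, 13.88, 13.79 and 13.93 in the D257A mice. The genotypes were far apart, and the rise was 0.67 ± 0.09 (SE, n = 5 per genotype, limma adjusted p = 0.00126). Rps4x, encoded on the X chromosome, was 14.54, 14.46, 14.57, 14.43 and 14.69 in the WT mice and 15.14, 15.02, 14.96, 14.92 and 15.06 in the D257A mice, a rise of 0.48 ± 0.07 (SE, n = 5 per genotype, limma adjusted p = 0.00238) with no overlap.

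Rps7 was 14.21, 14.23, 14.29, 14.27 and 14.22 in the WT mice and 14.72, 14.57, 14.77, 14.65 and 14.79 in the D257A mice, with WT mice close together, and rose by 0.45 ± 0.07 (SE, n = 5 per genotype, limma adjusted p = 0.00238). The dimmer probe set of Rps7 rose by 0.61 (limma adjusted p = 0.000524, below that of Rpl35). Rps28, another protein of the head, was 14.93, 14.87, 14.89, 14.80 and 15.00 in the WT mice and 15.36, 15.25, 15.29, 15.23 and 15.31 in the D257A mice and rose by 0.39 ± 0.07 (SE, n = 5 per genotype, limma adjusted p = 0.00344). Neither gene had an overlap between the genotypes. Rpsa, which also serves as a laminin receptor, rose by 0.39 ± 0.07 (SE, n = 5 per genotype, limma adjusted p = 0.00527), from 13.75 to 13.90 in WT to 14.15 to 14.27 in D257A mice. Of the 9 tested genes of the head of the small subunit, 7 were higher, with a median of 0.41, much as over both subunits (33 of 42, median 0.41), and Rps3 (0.39) and Rps20 (0.41) were among them. Rpsa and Rps3 did not pass with the block for the first digit (limma adjusted p = 0.06 and 0.0784). Fau, whose product is cut into ubiquitin-like and ribosomal parts and which carries the small subunit protein Rps30, rose by 0.50 ± 0.11 (SE, n = 5 per genotype, limma adjusted p = 0.0154).

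A smaller group of genes did not pass. In the large subunit these were Rpl14, Rpl27a, Rpl37 and Rpl39, and in the small subunit Rps2, Rps6, Rps25, Rps27 and Rps29. Rpl39, a small protein that lines the exit tunnel, was 8.31, 8.72, 7.30, 8.52 and 6.90 in the WT mice and 6.55, 7.51, 8.13, 6.82 and 6.16 in the D257A mice. Rpl39 is the other tested gene of the tunnel mouth. Its values overlapped over more than a log2 unit, and the difference was -0.92 ± 0.41 (SE, n = 5 per genotype, limma adjusted p = 0.188), with a 95% interval of -1.79 to -0.05. Rps27 likewise overlapped, 7.46, 8.55, 6.66, 7.16 and 7.09 in the WT mice and 7.78, 7.25, 7.96, 7.61 and 8.98 in the D257A mice, at 0.54 ± 0.35 (SE, n = 5 per genotype, limma adjusted p = 0.384).

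Rps6, the substrate of the S6 kinases, was 9.65, 9.61, 9.66, 9.60 and 9.83 in the WT mice and 9.62, 9.85, 9.81, 9.83 and 9.77 in the D257A mice. The ranges overlapped almost fully, through D257A 2-17M at 9.62 and WT 3-18M at 9.83, while the other WT mice lay below the other D257A mice. The difference was 0.11 ± 0.11 (SE, n = 5 per genotype, limma adjusted p = 0.596). Rps2 and Rps29 differed from these in being bright: Rps2 differed by 0.17 ± 0.07 (SE, n = 5 per genotype, limma adjusted p = 0.148) and Rps29 by 0.20 ± 0.08 (SE, n = 5 per genotype, limma adjusted p = 0.135). The remaining probe sets of Rps29, also bright, were called higher at 0.29 and 0.30 (limma adjusted p = 0.0212 and 0.0261), and its call was gained under 6 of 23 settings. Rpl27a differed by -0.12 ± 0.41 (SE, n = 5 per genotype, limma adjusted p = 0.894), with the D257A mouse 2-17M at 7.16 and the others from 9.55 to 9.77. Without that mouse the difference of Rpl27a was 0.39, so its direction turned, and it was still not called (limma adjusted p = 0.199). Rps25 stood at 0.50 ± 0.16 (SE, limma adjusted p = 0.0812), and its call was gained under 4 of 24 settings. For this gene WT 1-13M, at 9.04, lay among the D257A mice (8.87 to 9.09), and the other WT mice ran from 8.20 to 8.52.

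The strength of the signal differed widely between genes. With a mean log2 signal over 13, 17 of 17 large and 15 of 17 small subunit genes were higher, against 11.1% of the 858 probe sets of that strength that name no ribosomal protein member, of which 7.58% were lower and whose median fold change was 0.03. The exceptions were Rps2 and Rps29. With a mean under 10, 1 of 7 tested genes, Rpl12, was called. The standard errors of those 7 genes ran from 0.11 to 0.41, while those of the bright genes ran from 0.07 to 0.12.

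**Figure D3:**
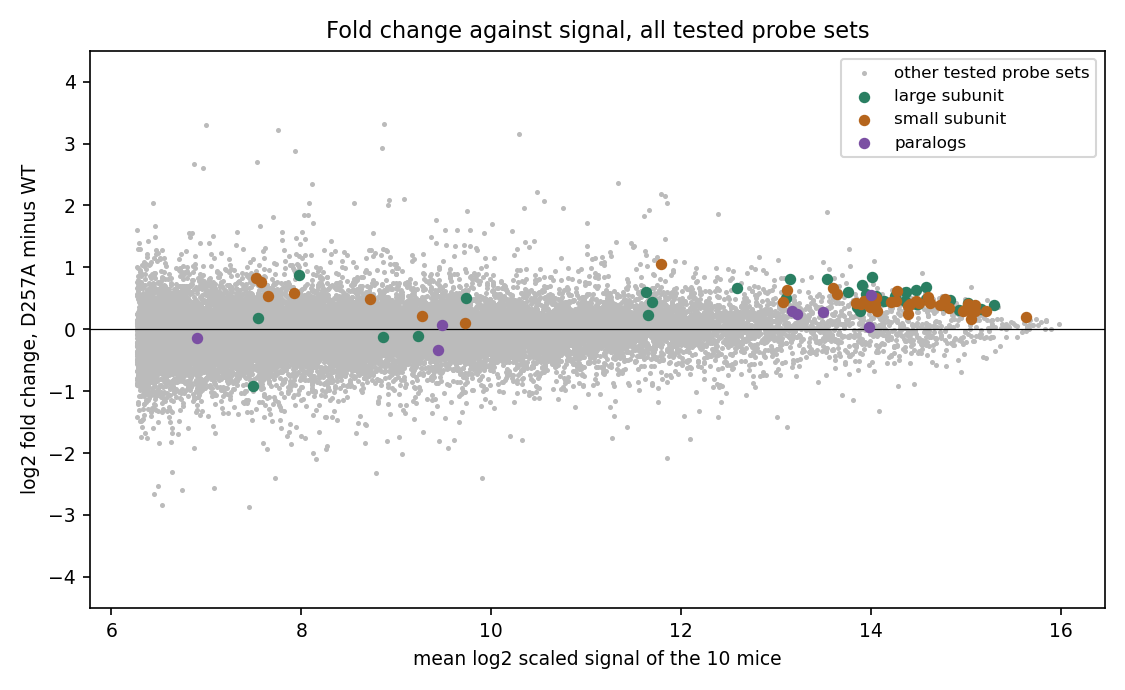
Log2 fold change, D257A minus WT, against the mean log2 scaled signal of the 10 mice, for all 22518 tested probe sets. Grey points are other probe sets, and coloured points those of large subunit genes, small subunit genes and paralogs. Most coloured points lie above a mean signal of 13, where all of them stand above 0, and the few below 0 have a mean signal under 10.

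Among all tested probe sets 3.64% were called higher, while over single probe sets of both subunits 66 of the 80 tested were. Those whose ID marks a shared or cross-matching design (ending in _x_at or _s_at) gave 32 of 38, and the others 34 of 42. The 101 tested probe sets that name a ribosomal protein gene of the list or one of the 27 others beside a second symbol gave 72 higher, with a median of 0.40 and a range of -0.09 to 1.29. Ribosomal protein genes have many processed pseudogenes, and signal of such copies on a probe cannot be separated from the gene itself.

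Of 20 genes with at least 2 tested probe sets, 13 had all of them called. In 16 of the 20 the dimmest probe set gave a higher fold change than the brightest, and in 10 the brightest gave the lowest of all. Rps10 ran from 0.36 to 1.05 over 5 probe sets, with 0.42 at the brightest and 1.05 at the dimmest. Rpl7 ran from 0.42 at the brightest to 0.82 at the dimmest of 3. Rpl37a had the opposite pattern, with 0.31 and 0.39 on its bright probe sets and -0.13 ± 0.46 (SE, limma adjusted p = 0.900) on a dim one. Its call at the brightest was lost without any of 7 mice, WT 1-12M, 2-3M or 2-32M or D257A 2-17M, 2-25M, 2-27M or 2-30M (limma adjusted p up to 0.112, rise 0.26 to 0.37).

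**Figure D4:**
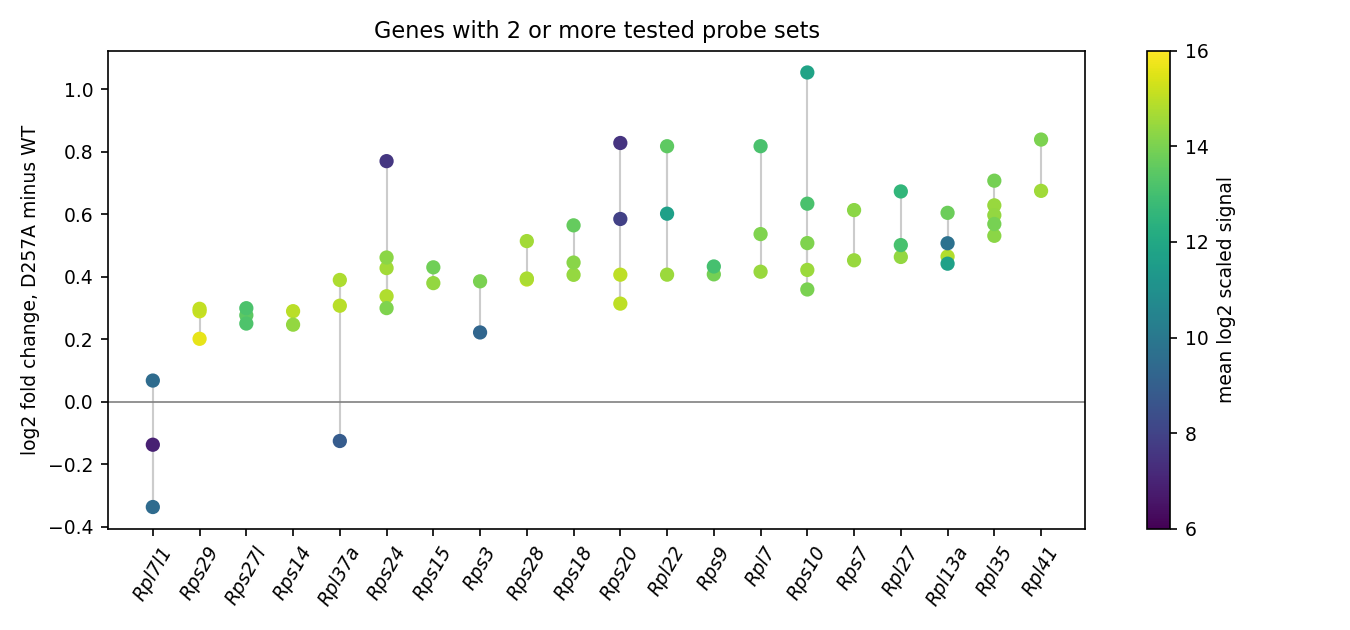
Log2 fold change, D257A minus WT, of each tested probe set of the 20 genes with 2 or more, joined by a line within a gene and ordered by the value at the brightest. Colour gives the mean log2 scaled signal. In 16 genes the dimmest probe set lies above the brightest, and Rpl37a and Rpl7l1 are the genes with values on both sides of 0.

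Of the 4 tested paralogs, 1 was called, against 3.64% of all tested probe sets called higher. So few genes do not allow the shares to be compared. Rpl3l, the form of Rpl3 that muscle makes in quantity, was 14.10, 13.58, 14.13, 14.04 and 13.95 in the WT mice and 14.00, 14.07, 14.02, 13.98 and 13.90 in the D257A mice. Its 10 values overlapped, and the difference was 0.03 ± 0.10 (SE, n = 5 per genotype, limma adjusted p = 0.879), with a 95% interval of -0.19 to 0.25. Its upper end is under the median rise of either subunit, a difference that was not tested. Rpl3 was named only beside a second symbol, so this pair was not compared.

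Rpl22l1, the paralog of Rpl22, was 13.63, 13.99, 13.28, 13.68 and 13.99 in the WT mice and 14.17, 14.39, 14.18, 14.14 and 14.49 in the D257A mice. No D257A mouse was as low as any WT mouse, and the rise was 0.56 ± 0.13 (SE, n = 5 per genotype, limma adjusted p = 0.0203). Rpl22 was 14.42, 14.24, 14.20, 14.12 and 14.46 in the WT mice and 14.94, 14.58, 14.66, 14.52 and 14.78 in the D257A mice and rose by 0.41 ± 0.10 (SE, n = 5 per genotype, limma adjusted p = 0.0232), also without overlap. The call of Rpl22l1 was lost without WT 1-12M or D257A 2-30M (limma adjusted p up to 0.0552, rise 0.45 to 0.63), and that of Rpl22 without WT 2-3M, WT 2-32M, D257A 2-17M, 2-25M or 2-30M (adjusted p up to 0.0651, rise 0.35 to 0.45). With the brightest probe sets, the log2 ratio of Rpl22l1 to Rpl22 within a mouse differed by 0.15 between the genotypes (95% interval -0.23 to 0.54, 2-sided exact permutation test, p = 0.325, 0.488 adjusted over 3 pairs). The dimmer Rpl22 probe sets were also called and rose more than Rpl22l1, by 0.82 and 0.60 (limma adjusted p = 0.00773 and 0.00539). The sign of the ratio difference therefore depends on which Rpl22 probe set is used.

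Rpl7l1, a paralog of Rpl7 that acts in ribosome assembly, was 9.25, 9.58, 9.50, 9.26 and 9.65 in the WT mice and 9.81, 9.45, 9.63, 9.29 and 9.40 in the D257A mice. The genotypes overlapped, and the difference was 0.07 ± 0.14 (SE, n = 5 per genotype, limma adjusted p = 0.812), while Rpl7 rose by 0.42 ± 0.08 (SE, n = 5 per genotype, limma adjusted p = 0.00535). Another Rpl7l1 probe set of nearly equal signal (mean log2 9.44 against 9.48) gave -0.34 (limma adjusted p = 0.188). A dimmer one gave -0.14 (limma adjusted p = 0.780). With the brightest probe sets, the log2 ratio of Rpl7l1 to Rpl7 was -5.01, -4.58, -4.83, -4.90 and -4.76 in WT and -4.83, -5.19, -5.09, -5.33 and -5.37 in D257A mice. The difference was -0.35 (95% interval -0.61 to -0.06, 2-sided exact permutation test, p = 0.0317, 0.0952 adjusted over 3 pairs), which did not pass. The smallest p that 5 against 5 mice allow is 0.00794. The adjusted p fell to 0.0238 when the mean of all tested probe sets stood for each gene (-0.73) and to 0.0476 without D257A 2-17M (-0.43), and rose to 0.238 with quantile normalization (-0.25) and to 0.286 in the mice numbered 2 alone (-0.30).

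Rps27l, which p53 can induce, was 13.46, 13.12, 13.29, 13.19 and 13.72 in the WT mice and 13.79, 13.58, 13.68, 13.53 and 13.58 in the D257A mice. The WT mouse 3-18M lay among the D257A mice, and the difference was 0.28 ± 0.11 (SE, n = 5 per genotype, limma adjusted p = 0.15). The remaining Rps27l probe sets, also bright, gave 0.30 and 0.25 (limma adjusted p = 0.0799 and 0.206). Under 3 of 24 settings Rps27l was called. Its log2 ratio to Rps27 differed by -0.26 (95% interval -1.36 to 0.86, 2-sided exact permutation test, p = 0.548, 0.548 adjusted), an interval too wide to compare this pair. Rpl39l, known from the testis, was at a mean log2 signal of 5.16 and was not tested. Rps19bp1, in the list by its name alone, differed by 0.09 (limma adjusted p = 0.787).

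Other mRNAs with a terminal oligopyrimidine start were higher in part. Of 17 tested, 7 were called higher, against 3.64% of all tested probe sets and 11.1% of other probe sets with a mean log2 signal over 13, and the median was 0.30. They included Eif3h and Eif3f of initiation factor 3, Eef1b2 of the elongation factor and the nucleolar Npm1. Eif3h was 12.96, 12.90, 13.06, 12.97 and 12.96 in the WT mice and 13.41, 13.49, 13.42, 13.34 and 13.42 in the D257A mice and rose by 0.45 ± 0.08 (SE, n = 5 per genotype, limma adjusted p = 0.00388). Npm1 was 12.96, 13.38, 13.19, 12.96 and 13.28 in the WT mice and 13.65, 13.64, 13.67, 13.69 and 13.81 in the D257A mice and rose by 0.54 ± 0.10 (SE, n = 5 per genotype, limma adjusted p = 0.00505). Neither overlapped between the genotypes. With the block for the first digit Eif3h, Eif3f and Eef1b2 did not pass (limma adjusted p = 0.0525, 0.0783 and 0.0719). Eef2 (0.15), Tpt1 (0.11) and Vim (-0.08) of the same list, picked after their values were seen, were not called.

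Among 20 tested regulators of ribosomal protein synthesis, from mTOR and its partners to factors of rRNA transcription, 2 were called higher, against 3.64% of all tested probe sets, and the median was 0.01. Myc, a transcription factor that raises ribosome production, was 7.12, 8.48, 6.34, 7.66 and 6.96 in the WT mice and 8.98, 8.25, 8.96, 8.08 and 9.58 in the D257A mice. WT 1-13M overlapped the D257A mice, and the rise was 1.46 ± 0.36 (SE, n = 5 per genotype, limma adjusted p = 0.0274). Akt1, a kinase upstream of mTOR, was 9.18, 10.93, 9.21, 8.99 and 8.97 in the WT mice and 10.51, 10.69, 10.51, 10.63 and 10.70 in the D257A mice. The highest of the 10 values was that of WT 1-13M, and the rise was 1.15 ± 0.30 (SE, n = 5 per genotype, limma adjusted p = 0.0331). Another probe set of Akt1, the dimmest tested, gave -0.69 (limma adjusted p = 0.223). Without WT 1-13M the rise of Akt1 was 1.52 (limma adjusted p = 2.03e-06), and without any 1 of the other 9 mice its call was lost (adjusted p up to 0.0859). The call of Myc was lost without WT 1-12M, 2-3M or 3-18M or D257A 2-17M, 2-25M or 2-30M (adjusted p up to 0.0709, rise 1.21 to 1.75).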

How the data were processed

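Total RNA of gastrocnemius muscle of 5 D257A and 5 WT mice was hybridized to Affymetrix arrays, 1 per mouse. The deposited values are intensity on a linear scale, 1 signal per probe set, made by the authors with GCOS 1.3 per the labels. Which algorithm gave the signal was not given in the sources used here. A supporting text of the study gives a scaling target of 500, which the columns do not have. Each array was therefore multiplied to bring its trimmed mean (2% left out at each end) to 500, and log2 was taken. Mice were grouped by the genotype in their labels.

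Of 45101 probe sets, 64 controls were set aside and the 22518 of the other 45037 whose mean log2 signal exceeded the median (6.26 or more) went into limma 3.58.1 (R 4.3.3, trend, no covariate), with Benjamini-Hochberg adjustment over all of them. Symbols came from GEO's platform annotation: 34945 probe sets had 1 symbol, 932 several and 9160 none. All 49 symbols matched RefSeq. The brightest probe set naming a gene alone stood for that gene. The number of arrays limits the precision. On simulated data of 22518 probe sets, limma recovered 67 of 100 changes of 1 on the log2 scale and 11 of 100 of 0.5, with 7 false calls. The changed probe sets were drawn at random from all tested, with independent noise of each probe set's own SD. These shares therefore do not describe the ribosomal protein genes, most of which were bright. Paralog ratios were tested by a 2-sided exact permutation test over 252 assignments.

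The genes and lists were chosen with earlier results of these data known. Genes named were the called members with the smallest adjusted p (at most 12 in each direction), the paralog pairs, the 3 highest and 3 lowest of each subunit, Rplp0, Rplp2 and Rpsa, up to 4 called genes of each list, and genes whose probe sets disagreed in sign. Rpl37, Rpl38, Rps10 and Rps18 were added with their values known. Alternatives were other scalings, filters, variance models, an offset of 32, representative probe sets and the methods' t-test, the mice numbered 2 alone, a block for the first digit of each mouse number, and each mouse left out. The dimmest probe set was added after seeing the data. Tables were made in Python 3.11.15.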

Additional observations from a re-analysis of the deposited data

Results flagged for a closer look

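Over 70 groups of 5 mice (both genotypes of the named ribosomal protein genes), 4 had a mouse far from the others, and chance gives about 1 in 20. For Rpl27a the D257A mouse 2-17M was lowest at 7.163, with the nearest D257A mouse at 9.553. For Rpl6 the D257A mouse 2-27M was lowest at 14.27 (nearest 14.36), and for Rplp0 the same mouse was lowest at 15.1 (nearest 15.22). For Rps6 the WT mouse 3-18M was highest at 9.831 (nearest 9.663). Rpl6 was called whichever mouse was left out, and Rpl27a and Rps6 were called under none of the 24 settings.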

How the results depend on the processing

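No subunit gene was called lower under any of the 24 alternative settings. The 18 large subunit genes higher became 10 with no filter on dim probe sets and 10 with no variance trend. The 15 small subunit genes higher became 8 with no scaling, 6 with no variance trend and 6 with a block for the first digit of each mouse number, a digit whose meaning is not stated. All D257A mice begin with 2, and the mice numbered 2 alone gave 17 large and 17 small subunit genes. No scaling moved the large subunit median to 0.34. Quantile normalization gave medians of 0.33 and 0.31, and median-centred arrays gave 0.55 and 0.53. Leaving out each mouse in turn gave 13 to 18 large and 11 to 16 small subunit genes higher, 0 to 0 lower in each, medians of 0.37 to 0.44 and 0.37 to 0.41, and 0 to 1 paralog ratios past the threshold. The paralog ratio count was 1, that of Rpl7l1 to Rpl7, with the mean of a gene's probe sets, with probe sets not ending in _s_at or _x_at, and with the dimmest probe set, the last chosen after seeing the data. With the dimmest probe set, Akt1 turned to -0.69 and Rpl37a to -0.13. Over 53 named genes, 1108 of 1261 values under other settings kept their side of the threshold, 137 lost it, 14 gained it and 2 reversed. Uncalled values whose sign turned, as for Rpl27a and Rpl3l with the block, were counted among the 1108. The cause of these changes was not tested. Counts of called probe sets over the whole table also moved, from 7.38% down to 2.53% with no filter and 2.5% with the block, and up to 17.6% with array weights, 15.2% without WT 1-13M and 13% over the 11259 brightest probe sets alone. No paired analysis was possible because the mice of the genotypes share no numbers in the labels. The number of arrays and dim signals limit what could be called.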
